A study of Homo sapiens with 6 samples.

Results

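Dense windows of open chromatin are stretches of 100 kb in which many accessible sites lie close together. Chromosomes 1 to 22 of the human genome (GRCh38) were divided into consecutive 100 kb windows from the first base, and each site of the deposited site table was placed in a window by its midpoint. A window with 20 or more sites was called dense. The rule was met by 1005 of 20475 windows with a site, and these windows held 22212 of the 175323 sites on the 22 autosomes. The site list covers all libraries together, so the members were chosen by the number of sites called per window, which is given here only as a description. A window nearly closed at 0 h can meet the rule through sites open only in treated libraries. How many of its sites rose is then tied to the choice of the window and is no separate support. The study measured accessible chromatin by Omni-ATAC, a form of ATAC-seq in which a transposase cuts and tags DNA that is not covered by nucleosomes, in wild-type K562 cells. Every culture belonged to this cell line. PMA was used at 25 nM for 0 h, 6 h or 72 h, with 2 libraries per time, and the 0 h libraries served as the untreated controls. Medium was changed after 24 and 48 h. The label of a library names a replicate number but not a separate culture, so p-values measure the spread between these libraries, which may be technical.

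K562 is a human leukaemia line with erythroid features, and it makes fetal and embryonic globins. PMA (phorbol 12-myristate 13-acetate) mimics diacylglycerol and activates protein kinase C, whose signalling reaches AP-1 transcription factors of the FOS and JUN families. Under PMA these cells stop dividing, spread, adhere and take on megakaryocyte features while erythroid genes are shut down. Accessible sites are promoters, enhancers and other stretches where transcription factors displace nucleosomes. Sites that lie close together often belong to the regulatory elements of a few neighbouring genes, as in the globin clusters, whose distal enhancers sit far from the promoters they act on.

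Promoter sequences of genes in the dense windows show what kinds of starts lie behind the values below. Each is the 250 bases before an annotated gene start, 5′ to 3′ on the strand of the gene, from RefSeq (GRCh38.p14). The first 3 lie in sites that opened: the upstream start of CAPN2, a calpain protease of focal adhesions, the start of CD44, the hyaluronan receptor, and the start of CSF1R, the receptor of the macrophage growth factor CSF1. The next 3 lie in promoter sites that were lower at 72 h inside windows where other sites were higher. They are the downstream start of CAPN2, KLF6, a zinc-finger factor, and an inner start of GATA2, a factor of blood progenitors. The last 4 come from windows that fell at 72 h: the shared promoter of H2AC13 and H2BC13, the histone H4 genes H4C11 and H4C12, and the ribosomal protein gene RPL13A. Capitals mark every match, on either strand, to any of 7 short motifs: TGANTCA for AP-1, AGATAA or TGATAA for GATA factors, TGTGGT for RUNX factors, CCGGAA for ETS factors, GGGCGG for SP and KLF factors, the CCAAT box and the TATA box (TATAAA).
CAPN2 upstream start, chr1:223701347-223701596, plus strand: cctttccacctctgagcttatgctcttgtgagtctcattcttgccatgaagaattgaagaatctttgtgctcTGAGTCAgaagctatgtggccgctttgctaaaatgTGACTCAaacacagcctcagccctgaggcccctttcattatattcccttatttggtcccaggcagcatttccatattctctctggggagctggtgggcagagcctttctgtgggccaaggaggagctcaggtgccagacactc
CD44, chr11:35138921-35139170, plus strand: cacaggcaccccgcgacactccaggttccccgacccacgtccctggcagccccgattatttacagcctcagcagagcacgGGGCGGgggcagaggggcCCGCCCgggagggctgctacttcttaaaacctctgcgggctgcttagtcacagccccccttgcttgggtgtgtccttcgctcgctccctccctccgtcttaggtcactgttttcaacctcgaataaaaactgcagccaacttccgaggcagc
CSF1R, chr5:150113366-150113615, minus strand: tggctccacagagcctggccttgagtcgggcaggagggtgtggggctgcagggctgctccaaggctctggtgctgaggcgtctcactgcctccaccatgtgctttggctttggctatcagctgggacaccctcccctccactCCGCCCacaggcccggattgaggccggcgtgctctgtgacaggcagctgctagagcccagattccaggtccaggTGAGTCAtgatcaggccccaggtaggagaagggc
CAPN2 downstream start, chr1:223712289-223712538, plus strand: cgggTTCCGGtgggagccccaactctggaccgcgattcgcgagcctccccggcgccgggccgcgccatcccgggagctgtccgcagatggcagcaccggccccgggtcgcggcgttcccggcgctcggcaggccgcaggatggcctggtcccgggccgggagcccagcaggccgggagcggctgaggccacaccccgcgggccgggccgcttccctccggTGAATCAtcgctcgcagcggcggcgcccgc
KLF6, chr10:3785210-3785459, minus strand: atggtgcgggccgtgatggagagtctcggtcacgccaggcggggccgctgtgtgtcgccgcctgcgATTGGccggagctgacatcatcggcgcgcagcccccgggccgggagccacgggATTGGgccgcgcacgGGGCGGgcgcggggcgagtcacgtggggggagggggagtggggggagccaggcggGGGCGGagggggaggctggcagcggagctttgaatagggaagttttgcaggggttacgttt
GATA2, chr3:128488531-128488780, minus strand: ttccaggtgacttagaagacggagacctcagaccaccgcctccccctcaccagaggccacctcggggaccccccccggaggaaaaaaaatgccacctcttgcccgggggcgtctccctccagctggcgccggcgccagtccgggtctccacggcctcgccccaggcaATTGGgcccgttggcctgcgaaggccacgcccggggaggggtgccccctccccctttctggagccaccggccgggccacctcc
H2AC13, chr6:27807923-27808172, plus strand: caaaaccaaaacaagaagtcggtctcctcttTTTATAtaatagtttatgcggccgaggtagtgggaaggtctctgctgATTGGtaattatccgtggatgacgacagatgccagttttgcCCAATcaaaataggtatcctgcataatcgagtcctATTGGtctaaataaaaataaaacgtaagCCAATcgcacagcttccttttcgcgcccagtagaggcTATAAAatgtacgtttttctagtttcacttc
H4C11, chr6:27823842-27824091, plus strand: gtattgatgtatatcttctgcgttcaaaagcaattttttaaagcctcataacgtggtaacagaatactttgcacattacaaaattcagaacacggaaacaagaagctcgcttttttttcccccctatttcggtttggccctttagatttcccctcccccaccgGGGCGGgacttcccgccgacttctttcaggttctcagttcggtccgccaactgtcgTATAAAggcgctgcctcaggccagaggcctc
H4C12, chr6:27831561-27831810, minus strand: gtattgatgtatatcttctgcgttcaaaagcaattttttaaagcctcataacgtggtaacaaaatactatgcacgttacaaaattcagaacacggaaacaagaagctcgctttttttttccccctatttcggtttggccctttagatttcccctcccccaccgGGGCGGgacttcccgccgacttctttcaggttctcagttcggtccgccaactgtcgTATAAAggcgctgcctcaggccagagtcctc
RPL13A, chr19:49487358-49487607, plus strand: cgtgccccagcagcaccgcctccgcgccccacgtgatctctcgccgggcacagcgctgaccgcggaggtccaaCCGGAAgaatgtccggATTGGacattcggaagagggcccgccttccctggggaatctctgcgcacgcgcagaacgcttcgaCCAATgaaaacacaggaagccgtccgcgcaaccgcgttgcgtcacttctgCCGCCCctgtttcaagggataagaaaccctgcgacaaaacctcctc
The upstream CAPN2 start held 2 matches to the AP-1 letters, and the downstream start and CSF1R held 1 each. The KLF6 promoter held 2 SP/KLF matches and 2 CCAAT matches. The H2AC13 and H2BC13 genes run in opposite directions from starts whose upstream stretches share 243 bases, and each stretch held 4 CCAAT and 2 TATA matches. The promoters of H4C11 and H4C12 differ by 5 single-base edits over 250 bases, so short reads from such near-identical copies can be assigned to the wrong copy, and values in the histone cluster are uncertain for that reason. A match is a string of letters and not a measured binding site.

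The dense windows were spread unevenly over the chromosomes. Chromosome 1 held 202 of them, which was 10.4% of its windows with a site, and chromosome 19 had the highest share at 12.5% (66 of 529). Chromosome 13 had the lowest, with 5 of 622 windows. The median dense window held 22 sites, and its sites covered 13.2% of its bases against 4.15% in the other windows. There were 279 windows with exactly 20 sites and 339 just outside the rule with 19. The most sites were 32, in chr1:6400001-6500000, which holds HES2, ESPN, TNFRSF25 and PLEKHG5. Dense windows held 2.37 protein-coding genes on average against 1.36 in the other windows, and 122 of them (12.1%) held none against 25.1%. In them 54.9% of sites overlapped a protein-coding gene, against 54.5% elsewhere, and 11.9% lay no more than 1000 bases from an end of such a gene, against 10.4%. Exon and intron positions of the sites were not analysed here.

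Neighbouring windows were often dense together. The 1005 windows formed 772 runs, 166 of them with at least 2 windows in a row. The longest run had 7 windows and 163 sites at chr1:206400001-207100000, from SRGAP2 through the cytokine genes IL10, IL19, IL20 and IL24 to PFKFB2. Runs of 6 windows covered VEGFA to AARS2 (chr6:43700001-44300000, 150 sites), SRSF3 and CDKN1A to PIM1 (chr6:36600001-37200000, 138 sites) and CRKL to TMEM191C (chr22:20900001-21500000, 128 sites). VEGFA encodes the vascular growth factor, CDKN1A the cell cycle inhibitor p21, and PIM1 a serine/threonine kinase. A run of 5 windows lay at IRF2BP2 (chr1:234500001-235000000) and another in the class III region of the major histocompatibility complex with LTA, TNF and LTB (chr6:31500001-32000000). Windows of a run did not all change the same way: in the CDKN1A run the log2 fold change at 72 h ranged from -1.22 to 0.79, whereas in the TNF run all values lay between -1.38 and -0.60. Among single genes, CAMTA1, ZMIZ1, SEPTIN9, LTBP1, CDH23, CNIH3, SGMS1 and IQSEC1 each spanned 3 dense windows.

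Library totals over all sites ranged from 12258890 to 35548737 counts, lowest in 6 h replicate 1, and the median dense window held between 1596 and 5051 counts per library. Levels are given as CPM, counts scaled to a common library size after adjusting each library total by TMM. TMM is a normalization that assumes that most sites do not change. With it the median log2 fold change over all tested sites against 0 h was 0.05 at 6 h and 0.29 at 72 h. Dense windows took 16.3% to 17.8% of autosomal counts in the 6 libraries. Their median level was 132 and 135 CPM at 0 h, 136 and 149 at 6 h, then 115 and 119 at 72 h, so with TMM the 72 h libraries were below the others and did not overlap them. With total counts the order turned, with a median level of 115 CPM at 0 h and 143 at 72 h. The scaling sets where no change lies. The median log2 fold change over all tested windows at 72 h against 0 h was -0.13 with TMM and 0.84 with TMM factors from sites that had a deposited peak in all 6 libraries, and at 6 h it was -0.08 and 0.21. The difference between dense and other windows is therefore given beside the counts, and fold changes of named windows are read against these medians. In bulk samples, fewer cells with an open site and less opening per cell cannot be told apart.

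At 6 h the dense windows lay above the other windows. The median log2 fold change was 0.07 in dense windows and -0.09 in the others, a difference of 0.16. With edgeR's quasi-likelihood test over all 20331 tested windows, 370 dense windows were higher (36.8%, against 24.8% of all tested windows) and 249 were lower (24.8%, against 27.5%). In all, 619 of 1005 dense windows passed the adjusted p of 0.05, where 52.3% of all windows did. Dense windows hold more counts, a median of 132 and 135 CPM at 0 h against 21.3 and 20.6 over all windows. A window with more counts passes a test more easily. Shares of called windows here and below were not matched for counts. Of single sites in dense windows 9960 changed (45.2%, against 40.1% of all sites): 6214 of 22054 tested sites in dense windows were higher (28.2%, against 23.4% of all sites) and 3746 were lower (16.99%, against 16.8%). The split among called dense windows moved with the scaling, from 59.8% higher with TMM to 43.6% with RLE and 93.1% with factors from shared sites. The difference between dense and other windows was 0.16 under RLE, total counts and shared-site factors and 0.21 under loess offsets.

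**Figure D1:**
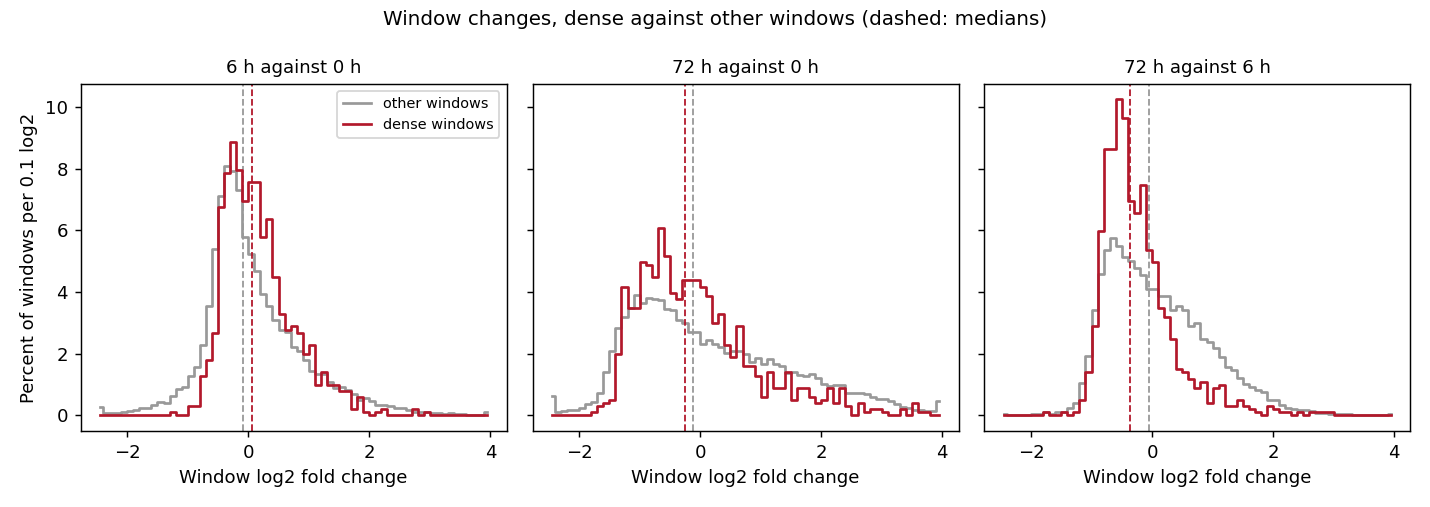
Distribution of window log2 fold changes (x axis) as percent of windows per 0.1 log2 (y axis) for the 1005 dense windows in red and the other tested windows in grey, with dashed medians; values past the ends are in the end bins. Dense windows sit to the right at 6 h (medians 0.07 and -0.09) and to the left at 72 h (-0.25 and -0.12).

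The largest rises at 6 h came from windows with 0 to 2 gene-end sites, a gene-end site being no more than 1000 bases from where a protein-coding gene starts or stops. Among dense windows that passed the test with libraries that did not overlap, the ERG window (chr21:38600001-38700000) rose most. ERG is an ETS-family transcription factor of blood stem cells and megakaryocytes. Its window held 7.21 and 6.02 CPM at 0 h, 43.2 and 58.2 at 6 h, then 76.8 and 75.3 at 72 h. Every treated library was above both controls, and the 72 h libraries were above those of 6 h. The log2 fold change at 6 h was 2.96 ± 0.16 (SE; edgeR adjusted p = 1.67e-09), with 14 of its 20 sites higher and 0 lower. The site with the largest gain, chr21:38645224-38645863 within ERG, had 11 and 2 counts at 0 h, 86 and 314 at 6 h, then 333 and 399 at 72 h. The window of APCDD1L (chr20:58500001-58600000) went from 24.2 and 27.3 CPM to 161 and 175 at 6 h and stood at 119 and 116 at 72 h. The window of CDH17, a cadherin, and GEM, a small GTP-binding protein (chr8:94200001-94300000), went from 20.5 and 21.04 CPM to 126 and 143.6 and then to 107 and 105. Their log2 fold changes at 6 h were 2.70 ± 0.11 and 2.70 ± 0.11 (SE; edgeR adjusted p = 1.16e-10 for each). In both, 17 of 23 sites were higher at 6 h and 0 were lower, and the level at 72 h lay between those of the other times.

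A window of chromosome 12 without a protein-coding gene (chr12:75700001-75800000) went from 36.5 and 32.7 CPM to 173 and 159 at 6 h, then 97.9 and 84.3 at 72 h. The log2 fold change at 6 h was 2.27 ± 0.11 (SE; edgeR adjusted p = 9.62e-10), with 16 of 20 sites higher. A site of 223 bases in it, chr12:75752020-75752242, had 0 counts at 0 h in each library, 5 and 12 at 6 h, numbers too small for a useful fold. The RAD51B window (chr14:68500001-68600000) held 11.6 and 16.4 CPM at 0 h, 65.1 and 68.1 at 6 h, then 73.2 and 74.5 at 72 h. The window rose by 2.24 ± 0.14 on the log2 scale at 6 h (SE; edgeR adjusted p = 6.22e-09), and the libraries of 6 and 72 h lay close to each other.

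Falls at 6 h were smaller than the rises. The RCSD1 window (chr1:167600001-167700000) had the largest fall among windows without overlap. RCSD1 encodes a partner of actin capping protein. The window held 191 and 219 CPM at 0 h, 88.8 and 116 at 6 h, then 112 and 117 at 72 h. The 6 h and 72 h libraries overlapped each other and lay below both controls, with a log2 fold change of -0.996 ± 0.12 at 6 h (SE; edgeR adjusted p = 5.82e-06). A site within RCSD1, chr1:167641938-167642684, had 212 and 311 counts at 0 h and 38 and 91 at 6 h, or 13.8 and 14.9 against 3.24 and 2.88 CPM. A gene-free window of chromosome 13 (chr13:107900001-108000000) went from 211 and 179 CPM to 113 and 90.4 (log2 fold change -0.94 ± 0.12), and its fall rested on 5 of 22 sites.

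Comparisons of 6 h and of 72 h with 0 h use the same control libraries. The alpha-globin window (chr16:100001-200000) was also among the 5 largest falls at 6 h. It holds HBZ, HBM, HBA2, HBA1 and HBQ1, the zeta, mu, alpha and theta globin genes, and NPRL3, whose introns carry the distal enhancers of the cluster. The window held 318 and 323 CPM at 0 h, 178 and 169 at 6 h, then 107 and 103 at 72 h. Each step downward exceeded the spread of the libraries: the log2 fold change was -0.89 ± 0.10 at 6 h (SE; edgeR adjusted p = 1.89e-06) and -1.61 ± 0.10 at 72 h (adjusted p = 7.61e-10). At 6 h the site with the largest fall lay in NPRL3 (chr16:104789-105500), with 12.7 and 9.23 CPM at 0 h, 2.30 and 1.68 at 6 h, then 1.01 in both 72 h libraries. At 72 h it was the site at HBA1 (chr16:176162-176944), with 44.4 and 59.5 CPM at 0 h, 22.1 and 14.3 at 6 h, then 5.62 and 3.26 at 72 h. HBA1 and HBA2 are near-identical copies, so reads at HBA1 may stem from either gene. Of 21 sites, 18 were lower at 72 h and 1 was higher.

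The other 2 of the 5 largest falls at 6 h were windows of ribosomal RNA genes on the short arm of chromosome 21. The window chr21:8200001-8300000 held 7872 and 5229 CPM at 0 h, 3528 and 3379 at 6 h, then 3408 and 2672 at 72 h. The other window, chr21:8400001-8500000, held 5095 and 3543 CPM at 0 h, 2357 and 2292 at 6 h, then 2339 and 1882 at 72 h. These were the highest levels among the named windows, and their log2 fold changes at 6 h were -0.92 ± 0.19 and -0.89 ± 0.17. Ribosomal DNA is present in many near-identical copies, so the counts pool copies from several chromosomes. Under offsets fitted along the level by loess the fall at 6 h was gone (0.000251 and 0.0123), and at 72 h 2 of the 3 dense windows with ribosomal RNA genes were higher under those offsets (median of the 3 windows 1.43).

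At 72 h the dense windows lay below the other windows. The median log2 fold change against 0 h was -0.25 in dense windows and -0.12 in the others, a difference of -0.12. With edgeR, 300 dense windows were higher (29.9%, against 35.9% of all tested windows) and 509 were lower (50.6%, against 42.8%). In all 809 of 1005 passed the test, where 78.7% of all windows did. Among sites of dense windows 15426 changed (69.9%, against 67.4% of all sites). Of these 8278 were higher (37.5%, against 38.2% of all sites) and 7148 were lower (32.4%, against 29.2%). The split among called dense windows was 37.1% higher with TMM, 29.4% with RLE, 64.4% with total counts and 91.3% with factors from shared sites. The difference from other windows was -0.12 under total counts and shared-site factors too, but 0.17 under loess offsets, where 468 dense windows were higher and 279 lower.

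Windows that rose and windows that fell at 72 h differed in their gene content and in their starting level. The 300 that rose held 1.37 protein-coding genes on average, 5.25% of their sites lay at gene ends, and their median level went from 51.9 to 109 CPM. The 509 that fell held 3.17 genes on average, 17.1% of their sites lay at gene ends, and their median level went from 213 to 126 CPM. The classes were set by the call at 72 h, so these levels are a description. Within dense windows the 2632 tested gene-end sites had a median log2 fold change of -1.06, with 63.9% lower and 16.4% higher. The 19422 other sites had a median of 0.34, with 28.1% lower and 40.4% higher. Gene-end sites outside dense windows had a median of -1.18, with 69.7% lower. Sites away from gene ends outside dense windows had a median of 0.54, with 23.8% lower and 41.6% higher, so those in dense windows rose less. When gene-end sites were left out of the window sums, 375 dense windows were higher and 380 were lower, and the difference from other windows was -0.23.

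The largest rises at 72 h came from windows that were nearly closed in untreated cells. Such windows can be dense through sites open only after PMA. The counts of higher sites here and in the next paragraph are therefore descriptions. TRIO, a guanine nucleotide exchange factor for small GTPases, led them (chr5:14400001-14500000). The window held 16.6 and 16.5 CPM at 0 h, 52.3 and 62.3 at 6 h, then 216 and 228 at 72 h, rising at each time without overlap. The log2 fold change at 72 h was 3.74 ± 0.12 (SE; edgeR adjusted p = 9.82e-12), and all 21 sites were higher. Its leading site, chr5:14399976-14400760, had 3 and 2 counts at 0 h, 29 and 94 at 6 h, then 353 and 354 at 72 h. The window of CACNA1E, the pore subunit of the R-type calcium channel (chr1:181300001-181400000), went from 13.9 and 9.99 CPM to 45.4 and 42.0 at 6 h and 142 and 156 at 72 h. Of its 24 sites 23 were tested, and all 23 were higher at 72 h. The log2 fold change of the window was 3.66 ± 0.14 (SE; edgeR adjusted p = 1.85e-11).

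Other windows rose mainly after 6 h. The window of the long noncoding RNA FENDRR (chr16:86400001-86500000), which has no protein-coding gene, held 6.96 and 5.55 CPM at 0 h, 11.1 and 11.96 at 6 h, then 78.2 and 70.7 at 72 h. Its leading site, chr16:86464777-86465655, had 3 and 2 counts at 0 h, 4 and 5 at 6 h, then 413 and 411 at 72 h. The window of HTRA1, a secreted serine protease, and the start of DMBT1, a scavenger-receptor glycoprotein (chr10:122500001-122600000), held 6.11 and 6.31 CPM at 0 h, 10.2 and 11.1 at 6 h, then 68.2 and 80.5 at 72 h. All 20 sites were higher at 72 h against 0 h, with log2 fold changes of 3.58 ± 0.14 for this window and 3.59 ± 0.15 for FENDRR (SE; edgeR adjusted p = 3.21e-11 and 3.37e-11). The neighbouring DMBT1 window (chr10:122600001-122700000) held 6.30 and 5.40 CPM at 0 h, 4.78 and 4.87 at 6 h, then 35.5 and 38.1 at 72 h. It gained most of all named windows between 6 and 72 h, by 2.93 ± 0.17 on the log2 scale (SE; edgeR adjusted p = 8.3e-09). BACE2, an aspartyl protease, followed (chr21:41200001-41300000). Its window held 21.6 and 18.2 CPM at 0 h, 27.1 and 28.6 at 6 h, then 205 and 190 at 72 h, and 20 of 21 sites were higher at 72 h than at 6 h (window log2 fold change 2.82 ± 0.11).

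**Figure D2:**
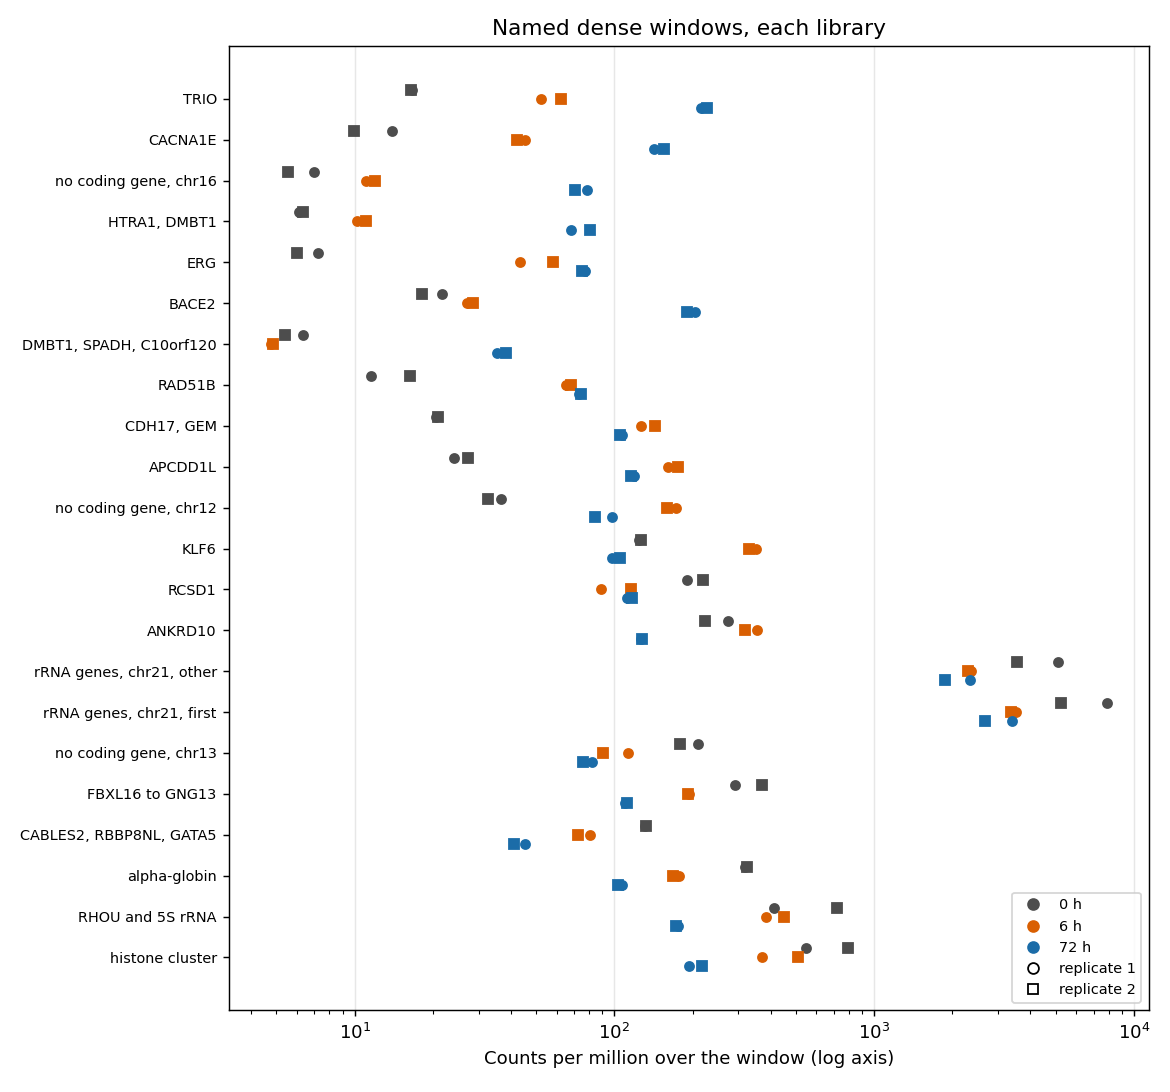
CPM (x axis, log scale) of the 22 windows with the largest changes in each of the 6 libraries, ordered by the log2 fold change at 72 h; grey is 0 h, orange 6 h, blue 72 h, circles replicate 1 and squares replicate 2. TRIO at the top runs from 16.5 to 228 CPM, the histone cluster at the bottom from 795 to 195, and KLF6 is highest at 6 h.

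The 5 largest falls at 72 h came from windows with between 1 and 16 protein-coding genes. The histone window chr6:27800001-27900000 holds 16 protein-coding genes, among them H1-5 and members of the H2A, H2B, H3 and H4 families, which supply chromatin during DNA replication. It held 545 and 795 CPM at 0 h, 369 and 510 at 6 h, then 195 and 217 at 72 h. The controls differed from each other, and both 72 h libraries were below all others, with a log2 fold change of -1.70 ± 0.17 (SE; edgeR adjusted p = 1.22e-07). Of its 22 sites 14 lay at gene ends, 17 were lower at 72 h and 2 were higher. The site over the H2AC13 and H2BC13 promoter printed above (chr6:27807363-27808564) held 88.1 and 119 CPM at 0 h, 57.9 and 72.0 at 6 h, then 28.3 and 30.2 at 72 h. The sites over H4C11 and H4C12 fell by -1.92 ± 0.22 and -1.91 ± 0.20 on the log2 scale at 72 h, values that their near-identical sequences could share.

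The window of RHOU, a small GTPase, and 17 genes of 5S ribosomal RNA (chr1:228600001-228700000) held 412 and 717 CPM at 0 h, 385 and 451 at 6 h, then 175 and 173 at 72 h. The 6 h libraries overlapped the controls, and those of 72 h were below all others, with a log2 fold change of -1.70 ± 0.18 against 0 h and -1.27 ± 0.18 against 6 h. The 5S genes are repeats too, so their sites share reads. The window of CABLES2, RBBP8NL and GATA5 (chr20:62400001-62500000) held 131 and 132 CPM at 0 h, 80.6 and 72.6 at 6 h, then 45.4 and 41.1 at 72 h. GATA5 is a factor of heart and gut, and CABLES2 is a partner of cyclin-dependent kinases. This window carried only 3 gene-end sites and fell by -1.61 ± 0.10 on the log2 scale (SE; edgeR adjusted p = 9.69e-10). The window of FBXL16, METRN, HAGHL, MSLN, CHTF18 and GNG13 (chr16:700001-800000) held 292 and 371 CPM at 0 h, 194 and 192 at 6 h, then 110 and 112 at 72 h, and 18 of its 25 sites were lower at 72 h.

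Windows with tRNA genes moved the same way in the TMM scaling. Transfer RNA genes are short genes read by RNA polymerase III. In 24 dense windows that held 146 of them, 24 were lower at 72 h with a median log2 fold change of -1.10, and 12 were lower at 6 h, against 42.8% and 27.5% of all windows. With factors from shared sites 6 were lower and 2 higher at 72 h (median -0.13, against 0.84 for all windows under that scaling), and under loess offsets 9 were lower and 3 higher.

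Between 6 and 72 h the dense windows fell relative to the rest. The median log2 fold change was -0.37 in dense windows and -0.06 elsewhere, a difference of -0.31 that was -0.31 with RLE, total counts and shared-site factors and -0.02 under loess offsets. With edgeR 156 dense windows were higher (15.5%, against 27.4% of all) and 598 were lower (59.5%, against 37.0%), of 754 changed (75.02%, against 64.3%). The split turned with the scaling, to 572 higher and 55 lower with shared-site factors and 339 and 297 with total counts. Of the sites 10099 changed (45.8%, against 42.9%), where 4078 were higher (18.5%, against 22.1%) and 6021 were lower (27.3%, against 20.9%).

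KLF6 gave the largest fall between 6 and 72 h. KLF6 is an early-response zinc-finger factor that binds GC-rich promoters. Its window (chr10:3700001-3800000) held 124 and 126 CPM at 0 h, 352 and 331 at 6 h, then 98.1 and 105 at 72 h. Both 6 h libraries were above all others, and the log2 fold change from 6 to 72 h was -1.75 ± 0.10 (SE; edgeR adjusted p = 6.67e-09). The leading site, chr10:3775149-3776680, lay at the 3' end of KLF6 and had 100 and 152 counts at 0 h, 1169 and 3022 at 6 h, then 321 and 395 at 72 h. In CPM it went from 6.5 and 7.27 to 99.7 and 95.6 and back to 8.31 and 9.32. The site over the promoter printed above (chr10:3784851-3786079) did not follow: it held 69.4 and 64.8 CPM at 0 h, 73.8 and 69.1 at 6 h, then 19.7 and 26.2 at 72 h, a log2 change of 0.09 ± 0.15 at 6 h and -1.55 ± 0.15 at 72 h. At 6 h 13 of 22 sites were higher and 0 were lower.

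ANKRD10 followed KLF6 (chr13:110900001-111000000), with 274 and 223 CPM at 0 h, 353 and 320 at 6 h, then 127 and 128 at 72 h. Its promoter site, chr13:110914220-110915817, held 99.4 and 107 CPM at 0 h, 101 and 93.9 at 6 h, then 32.9 and 33.8 at 72 h. Here too the gain at 6 h of the window (8 of 20 sites higher) was not seen at the promoter.

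Over the 3 times together 901 dense windows differed (89.7%, against 83.6% of all) and 16644 of their sites (75.5%, against 72.0%). The order of the libraries over time is given as shares, with no test of the difference and no matching of windows for counts. In 220 dense windows (21.9%) both 6 h libraries exceeded all 4 others, against 9.36% of all tested windows. Rises at each time without overlap were found in 149 (14.8%, against 18.8%), falls at each time in 289 (28.8%, against 25.9%) and a low point at 6 h in 22 (2.19%, against 7.95%). With shared-site factors the high point at 6 h was found in 70 windows (6.97%) against 4.25% of all, rises at each time in 521 (51.8%) against 41.5%, and falls at each time in 28 (2.79%) against 4.11%.

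Sites in the same dense window changed together in part. For each comparison the variance of site log2 fold changes was divided into a part shared by the sites of a window and a part within windows. To keep counting noise out, fold changes of replicate 1 at a site were also compared with those of replicate 2 at other sites of the window. This cross-replicate share was 0.12 at 6 h against 0 h, 0.26 at 72 h against 0 h and 0.33 at 72 h against 6 h, over 22054 sites in 1005 windows. The spread within windows was larger than between them: the SD was 1.16 within and 0.43 between at 6 h, then 1.41 within and 0.88 between at 72 h. Unlike the cross-replicate share, the SD within windows still holds counting noise. Windows of 5 to 19 sites gave shares of 0.11, 0.25 and 0.35. Without gene-end sites the shares in dense windows were 0.11, 0.26 and 0.34.

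Sharing fell with distance but did not vanish within 100 kb. By distance, the cross-replicate share is the covariance of pairs across replicates, divided by the mean covariance of a site with itself. For pairs of sites up to 2 kb apart (7549 pairs) this share was 0.24 at 6 h, 0.44 at 72 h and 0.58 from 6 to 72 h. For pairs 80 to 100 kb apart (8736 pairs) it was 0.07, 0.17 and 0.21. Neighbouring dense windows also resembled each other. Over 233 adjacent pairs the Pearson correlation across replicates was 0.52 at 6 h, 0.59 at 72 h and 0.59 from 6 to 72 h. The same window against itself gave 0.94, 0.98 and 0.96. These correlations are a different measure from the shares of site pairs. These are descriptions over pairs that share libraries and sites, with no test.

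**Figure D3:**
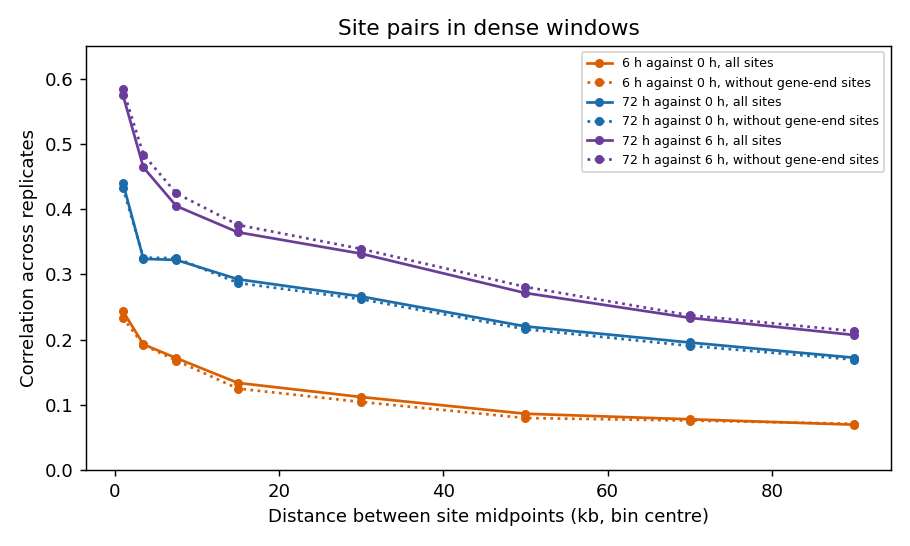
Cross-replicate share of site log2 fold changes (y axis, labelled correlation) by the distance of the pair in kb (x axis). It is the covariance between replicate 1 at a site and replicate 2 at another site of the same dense window, divided by the mean covariance of a site with itself. The 3 comparisons are solid with all sites and dotted without gene-end sites. Each line falls with distance, from 0.58 to 0.21 for 72 h against 6 h and from 0.24 to 0.07 for 6 h against 0 h.

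With TMM most windows nevertheless held sites that moved both ways. Among windows with at least 5 called sites, the median share of called sites in the leading direction was 71.4% at 6 h (964 windows), 72.7% at 72 h (1004 windows) and 81.8% from 6 to 72 h (962 windows). All called sites went the same way in 112, 95 and 225 windows (11.6%, 9.46% and 23.4%). In windows of 5 to 19 sites with at least 5 called, the shares were 16.2%, 20.9% and 41.2%. At 72 h 423 windows (42.1%) had at least 5 sites higher and at least 5 lower. At 6 h there were 151 such windows (15.02%), and from 6 to 72 h 60 (5.97%). In windows of 5 to 19 sites with at least 5 called, the median share in the leading direction was 71.4% at 6 h, 75% at 72 h and 85.7% from 6 to 72 h. The count of 5 sites each way depends on how many sites a window holds. Of all windows of 5 to 19 sites, 0.68% met it at 6 h, 4.74% at 72 h and 0.22% from 6 to 72 h. Counts of direction depend on the scaling and were made here with TMM only. With TMM 37.5% of tested sites in dense windows were higher at 72 h and 32.4% were lower. With shared-site factors these shares were 58% and 11.2%.

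The 5 windows with the most sites called both ways at 72 h are examples of mixed direction with TMM. The GATA2 window (chr3:128400001-128500000, with EEFSEC and DNAJB8) held 219 and 264 CPM at 0 h, 225 and 239 at 6 h, then 119 and 135 at 72 h, with 10 sites higher and 12 lower at 72 h. The site over the GATA2 promoter printed above (chr3:128487598-128489501) lay at an inner start of the gene and was not a gene-end site. This site fell from 57.5 and 64.5 CPM to 19.4 and 22.8 at 72 h. At 6 h that site held 54.5 and 52.8 CPM, a log2 change of -0.19 ± 0.14, while 11 sites of the window were already higher. The window of UBXN11, CD52, CRYBG2 and ZNF683 (chr1:26300001-26400000) had 10 sites higher and 10 lower and went from 258 and 280 CPM to 169 and 170 at 72 h. CD52 encodes a lymphocyte surface glycoprotein. The window of DAGLA, MYRF, TMEM258, FEN1 and FADS1 (chr11:61700001-61800000) also had 10 and 10, with 164 and 203 CPM at 0 h and 159 and 170 at 72 h, which overlapped. FEN1 is the flap nuclease of DNA replication and FADS1 a fatty acid desaturase. The SMAD7 window, around an inhibitor of TGF-beta signalling, held 118 and 118 CPM at 0 h and 126 and 125 at 72 h, with 11 sites higher and 10 lower. Its window log2 fold change at 72 h was 0.09 ± 0.11 (edgeR adjusted p = 0.425), and with shared-site factors it was 1.06. The window of MFN2, a mitochondrial fusion protein, MIIP and TNFRSF8 (chr1:12000001-12100000) had 9 higher and 10 lower.

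**Figure D4:**
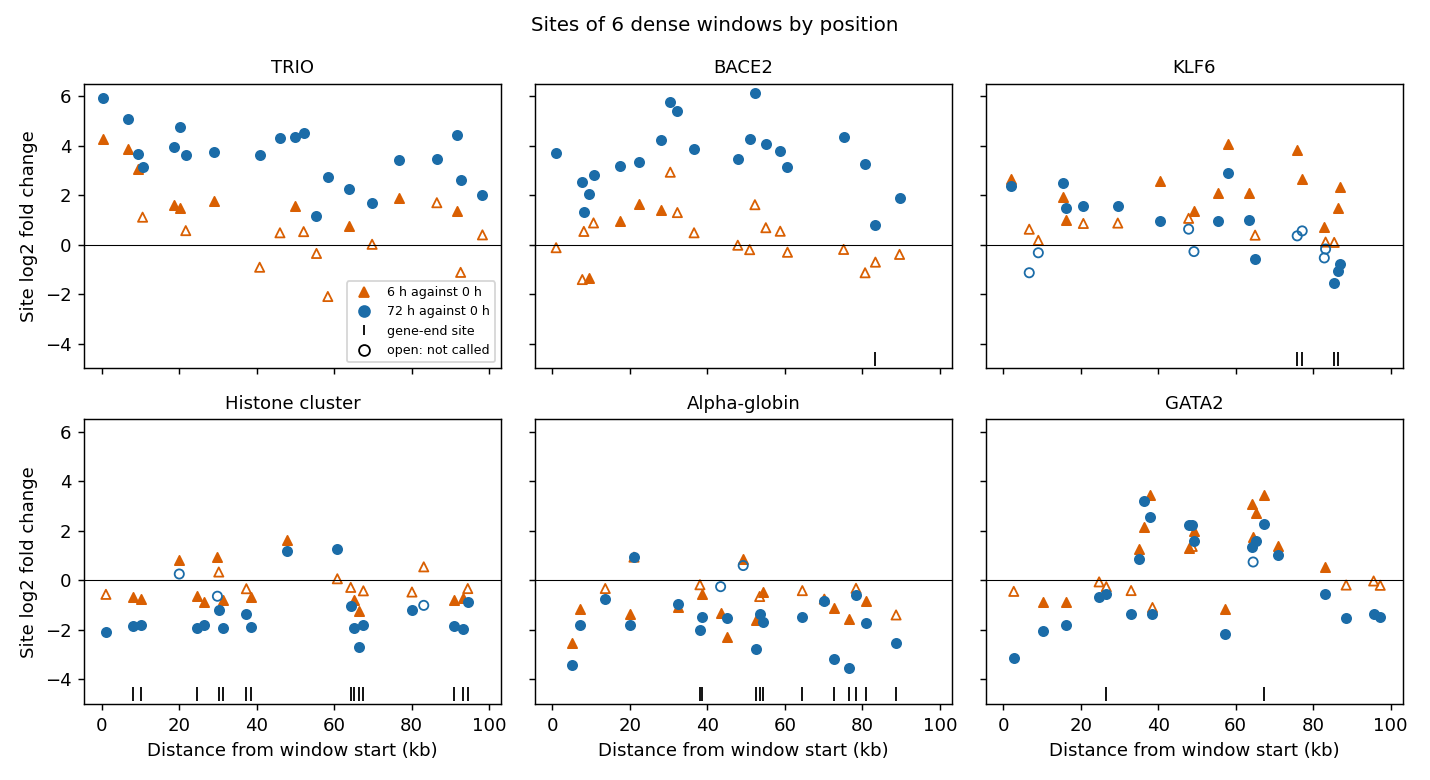
Site log2 fold change (y axis) by distance from the window start in kb (x axis) in 6 dense windows, triangles for 6 h against 0 h and circles for 72 h against 0 h, filled where the adjusted p was under 0.05; ticks at the bottom mark gene-end sites. In TRIO and BACE2 all called 72 h sites are above 0, in the alpha-globin window 18 of 21 are below, and in GATA2 10 are above and 12 below.

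The 5 windows with the most sites had log2 fold changes between -0.62 and 0.25 at 72 h with TMM. With shared-site factors the 4 values below 0 turned positive (HES2 0.48, MIR4435-2HG 0.55, GSE1 0.35 and chr1:234800001-234900000 0.78). The HES2 window with 32 sites held 216 and 230 CPM at 0 h, 233 and 223 at 6 h, then 165 and 152 at 72 h, with 15 sites lower and 4 higher at 72 h. HES2 is a transcriptional repressor of the hairy and enhancer-of-split family, and ESPN encodes espin, an actin-bundling protein. The window of the noncoding RNA gene MIR4435-2HG (chr2:111400001-111500000, 31 sites) had 9 sites higher and 10 lower and went from 185 and 199 CPM to 141 and 146 at 72 h. The GSE1 window (chr16:85300001-85400000, 31 sites) went from 360 and 431 CPM to 247 and 267, with 18 sites lower. The window of CSRP1, a LIM-domain protein, and NAV1 (chr1:201500001-201600000, 30 sites) held 189 and 203 CPM at 0 h and 230 and 236 at 72 h, with 16 sites higher and 8 lower. The log2 change of 0.25 ± 0.10 did not pass without 0 h replicate 1 (0.18), 72 h replicate 1 (0.26) or 72 h replicate 2 (0.23). A gene-free window (chr1:234800001-234900000, 30 sites) held 259 and 263 CPM at 0 h and 227 and 231 at 72 h. Its log2 fold change of -0.19 ± 0.11 (edgeR adjusted p = 0.129) did not pass the test. Only 8 windows held 30 or more sites.

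Gene lists for this cell system, chosen with earlier results of these data known, were placed on the dense windows. Of the 883 dense windows with a protein-coding gene, 301 were higher and 223 lower at 6 h (median 0.03). At 72 h 243 of them were higher and 468 lower (median -0.30). Of all 18973 protein-coding genes on the autosomes, 11.8% lay at least partly in a dense window. For erythroid genes it was 7 of 18, in 3 windows: the alpha-globin window, the window of HBG1, HBG2 and HBE1 (fetal and embryonic beta-like globins) and that of SLC4A1, the anion exchanger of the red cell membrane. All 3 were lower at 6 h and at 72 h, where 27.5% and 42.8% of all windows were lower. The beta-like globin window (chr11:5200001-5300000) held 305 and 283 CPM at 0 h, 229 and 221 at 6 h, then 113 and 120 at 72 h. The SLC4A1 window (chr17:44200001-44300000) held 244 and 272 CPM at 0 h, 160 and 179 at 6 h, then 115 and 112 at 72 h. HBG1 and HBG2 are near-identical copies. The median of the 3 windows at 72 h was -1.34, and with shared-site factors -0.37 with all 3 still lower.

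Megakaryocyte and platelet genes lay in dense windows for 9 of 22 genes, in 10 windows. At 6 h 5 were higher and 4 lower, and at 72 h 2 were higher and 6 lower (medians 0.13 and -0.37, against -0.08 and -0.13 for all windows). Dense windows with a protein-coding gene had medians of 0.03 and -0.30, so the median at 72 h was close to theirs. Of all windows 24.8% were higher and 27.5% lower at 6 h, and 35.9% and 42.8% at 72 h. The window that spans VWF, the von Willebrand factor, and the start of CD9, a tetraspanin of platelets (chr12:6100001-6200000), held 44.8 and 36.8 CPM at 0 h, 72.1 and 89.3 at 6 h, then 75.1 and 74.1 at 72 h. The next CD9 window (chr12:6200001-6300000) rose from 63.6 and 60.0 CPM to 74.7 and 77.3 at 72 h, a log2 change of 0.30 ± 0.11. This change no longer passed the test without 0 h replicate 2 (0.26), 72 h replicate 1 (0.32) or 72 h replicate 2 (0.27). At the other end, the window of NFE2, a megakaryocyte and erythroid factor (chr12:54200001-54300000), went from 364 and 409 CPM to 155 and 158. The window of GP1BB, a subunit of the platelet receptor for von Willebrand factor (chr22:19700001-19800000), went from 659 and 795 CPM to 330 and 337 at 72 h, a change that was 0.17 under loess offsets. With shared-site factors 6 of the 10 windows were higher at 72 h and 1 was lower.

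AP-1 and immediate-early genes had 12 of 21 genes in 12 dense windows. At 6 h 3 were higher and 2 lower (median 0.10), where 24.8% and 27.5% of all windows were. At 72 h 2 were higher and 8 lower (median -0.50), where 35.9% and 42.8% of all windows were. The median of dense windows with a protein-coding gene was -0.30. Shared-site factors gave 8 higher and 1 lower. FOSL2, a FOS-family subunit, rose most among them (chr2:28400001-28500000): its window held 28.8 and 32.6 CPM at 0 h, 71.1 and 69.7 at 6 h, then 86.2 and 86.0 at 72 h, with 19 of 25 sites higher. DUSP5, a nuclear phosphatase of ERK (chr10:110400001-110500000), went from 92.0 and 88.1 CPM to 134 and 141 and then 168 and 181. FOSL1, another FOS-family subunit (chr11:65800001-65900000), held 443 and 602 CPM at 0 h and 206 and 228 at 72 h, a change that was 0.18 without gene-end sites. JUNB, a JUN-family subunit (chr19:12700001-12800000), held 385 and 430 CPM at 0 h, 322 and 327 at 6 h, then 191 and 192 at 72 h. At the JUNB promoter the site held 30.7 and 41.2 CPM at 0 h, 40.2 and 37.5 at 6 h, then 20.2 and 19.4 at 72 h.

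Blood transcription factors had 4 of 19 genes in dense windows. ERG rose, as given above. ZFPM1, the GATA1 cofactor (chr16:88400001-88500000), LYL1 (chr19:13100001-13200000) and GATA2 fell at 72 h by -1.01 ± 0.11, -0.82 ± 0.10 and -0.93 ± 0.11 on the log2 scale. With shared-site factors these 3 values were -0.04, 0.15 and 0.04. The LYL1 promoter site fell by 6 h, from 77.9 and 87.1 CPM to 34.5 and 29.3, and held 27.7 and 29.8 at 72 h.

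Adhesion and cytoskeleton genes had 9 of 17 genes in 9 dense windows, with 2 higher and 3 lower at 6 h (median -0.04) and 1 higher and 7 lower at 72 h (median -0.59). Of all windows 24.8% were higher and 27.5% lower at 6 h and 35.9% and 42.8% at 72 h, with a median of -0.13 at 72 h. Dense windows with a protein-coding gene had a median of -0.30 at 72 h. CD44 (chr11:35100001-35200000) was the 1 that rose: its window held 25.4 and 26.8 CPM at 0 h, 81.5 and 104 at 6 h, then 125 and 134 at 72 h, with 19 of 21 sites higher at 72 h and 0 lower. Its log2 fold change was 2.31 ± 0.12 at 72 h (SE; edgeR adjusted p = 1.8e-10). The promoter site printed above held 3.51 and 3.20 CPM at 0 h, 20.9 and 20.4 at 6 h, then 15.5 and 15.6 at 72 h. CNN2, a calponin (chr19:1000001-1100000), went down from 558 and 519 CPM to 176 and 188 at 72 h. TLN1, talin of integrin adhesions (chr9:35600001-35700000), went from 209 and 233 to 102 and 112, and its window value was 0.32 without gene-end sites. CAPN2 (chr1:223700001-223800000) held 252 and 291 CPM at 0 h, 439 and 469 at 6 h, then 220 and 242 at 72 h. The window change at 72 h (-0.23 ± 0.11) did not pass the test, and it was 0.74 with shared-site factors. Its 2 starts differed: the upstream site held 23.8 and 39.0 CPM at 0 h, 65.8 and 76.8 at 6 h, then 29.4 and 35.8 at 72 h, whereas the downstream site held 36.6 and 51.2, 53.6 and 48.4, and 20.3 and 19.96. With shared-site factors 6 of the 9 windows were higher at 72 h and 1 was lower.

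Protein kinase C genes, a family with members that PMA activates, had 3 of 9 genes in 4 dense windows. PRKCH (chr14:61500001-61600000) went from 52.1 and 50.9 CPM to 85.0 and 79.0 at 6 h and 86.4 and 79.0 at 72 h. The first PRKCB window (chr16:23800001-23900000) went from 92.9 and 109 CPM to 84.4 and 76.9 at 72 h, PRKCD (chr3:53100001-53200000) from 102 and 105 to 81.1 and 91.2, and the next PRKCB window (chr16:23900001-24000000) from 99.8 and 97.5 to 98.4 and 102. The falls of PRKCD and of the first PRKCB window (-0.26 and -0.33) did not pass the test without 0 h replicate 2 (-0.24 and -0.21). With shared-site factors all 4 were higher at 72 h, where 74.1% of dense windows were. Of the 11 monocyte and macrophage markers CSF1R alone lay in dense windows, and both of its windows were higher at 72 h: chr5:150000001-150100000 went from 147 and 166 CPM to 188 and 220, and chr5:150100001-150200000 from 96.4 and 102 to 123 and 130. With RLE neither passed the test, and chr5:150000001-150100000 did not pass without 0 h replicate 1 (0.29) or 72 h replicate 2 (0.26). The CSF1R promoter site printed above held 5.07 and 3.73 CPM at 0 h, 7.25 and 11.01 at 6 h, then 14.4 and 16.6 at 72 h. None of the 8 lymphocyte markers lay in a dense window.

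Housekeeping genes had 3 of 10 in dense windows, and all 3 windows were lower at 72 h, where 42.8% of all windows and 50.6% of dense windows were. RPL13A (chr19:49400001-49500000) went from 522 and 510 CPM to 335 and 335 at 6 h and 182 and 182 at 72 h, ACTB (chr7:5500001-5600000) from 501 and 722 to 226 and 246 at 72 h, and RPLP0 (chr12:120200001-120300000) from 366 and 425 to 245 and 283. RPLP0 was higher with shared-site factors (0.38) and under loess offsets (0.47). At the RPL13A promoter printed above the site held 53.8 and 52.2 CPM at 0 h, 38.1 and 33.6 at 6 h, then 17.1 and 14.2 at 72 h.

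**Figure D5:**
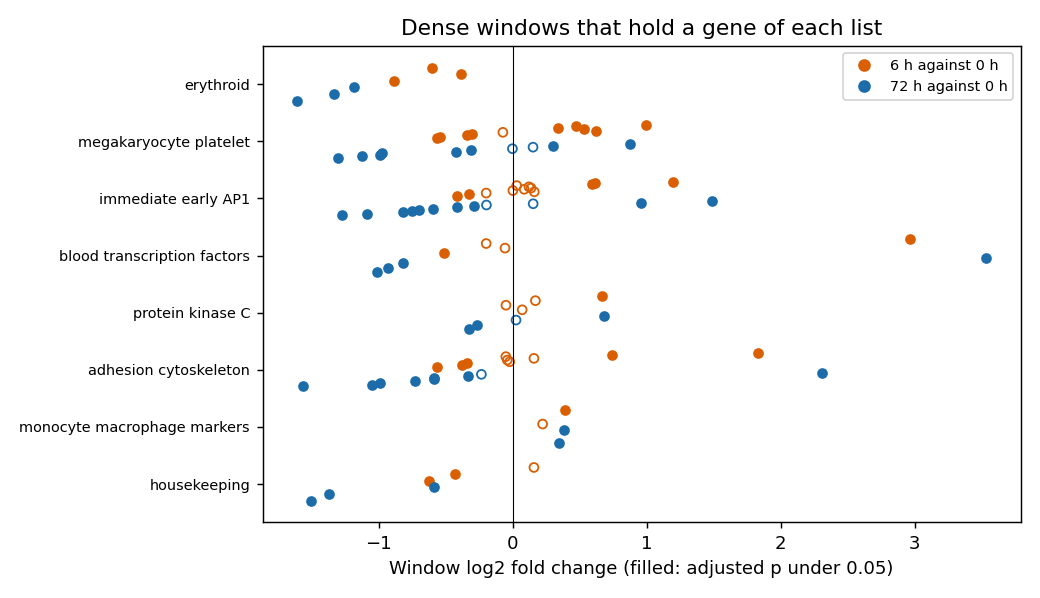
Log2 fold change (x axis) of each dense window that holds a gene of a list (rows), orange for 6 h and blue for 72 h against 0 h, filled where the adjusted p was under 0.05. The 3 erythroid windows are below 0 at both times, CD44 (2.31) and ERG (3.53) are the blue points at far right of their rows.

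Promoters of the windows that rose and fell differed in motif letters. Among all 33725 RefSeq promoter stretches of 250 bases on the autosomes 42.7% held the SP/KLF letters GGGCGG on either strand, against 51.8% of the 3020 in dense windows. In dense windows higher at 72 h it was 31.96% of 535 promoters, and in those lower at 72 h 60.1% of 2032. AP-1 letters TGANTCA were in 6.54% of all promoters, 7.05% of those in dense windows, 11.6% in windows that rose and 5.27% in windows that fell. GATA letters (AGATAA or TGATAA) were in 14.6%, 10.3%, 15.3% and 8.51% of the same 4 groups, and CCAAT in 31.8%, 28.9%, 26.5% and 30.3%. TATAAA was in 10.7%, 6.69%, 8.22% and 6.20%, ETS letters CCGGAA in 14.6%, 14.8%, 8.60% and 17.5%, and RUNX letters TGTGGT in 10.9%, 9.57%, 11.8% and 8.71%. Strings can overlap each other, and these shares are counts of letters with no test.

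Markers were read at their own sites to check the label of the cells. Erythroid markers were open in untreated cells: HBG1 sites held 48.9 and 47.9 CPM at 0 h, 37.6 and 40.7 at 6 h, then 16.6 and 17.9 at 72 h. Sites at TAL1, a factor of blood progenitors, held 94.8 and 103 CPM at 0 h, 77.5 and 88.5 at 6 h, then 45.9 and 51.2 at 72 h. Monocyte or macrophage markers summed to 82.7 and 97.3 CPM at 0 h, 128 and 160 at 6 h, then 132 and 152 at 72 h, with no site at CD14. The rise of the sum lay in CSF1R (34.1 and 34.9 CPM at 0 h, 92.2 and 105 at 72 h) and MARCO (1.62 and 1.24, then 16.5 and 18.3), while CD68 went from 35.5 and 51.4 to 15.9 and 20.9 and ITGAM from 11.5 and 9.80 to 7.22 and 7.83. Of the megakaryocyte integrin genes, ITGA2B held 68.4 and 62.3 CPM at 0 h, 31.4 and 37.2 at 6 h, then 27.4 and 28.1 at 72 h. ITGB3 held 97.8 and 88.5 CPM at 0 h, 131 and 148 at 6 h, then 114 and 120 at 72 h, and PF4 had no site. Lymphocyte markers summed to 90.8 and 87.0 CPM at 0 h and 50.4 and 52.1 at 72 h. The part of other cell types in the window changes was not tested.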

How the data were processed

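Per the labels, K562 cells were profiled by Omni-ATAC after 0, 6 or 72 h of PMA. The authors deposited read counts per site in 6 libraries with log2 fold changes, and per-library peak lists with a score, fold enrichment (a ratio) and −log10 p-values and q-values, per the file headers. Per the submitters' processing notes, which give no role or order, the tools were Trim Galore 0.4.3, BWA 0.7.17, SAMtools 1.9, deepTools 3.0.1, MACS2, bedtools 2.26 and DESeq, with hg38 as the build. How the site list was made is not given in the sources used here.

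Deposited counts were summed over 100 kb windows. Sites and windows were tested separately with edgeR 4.0.16 in R 4.3.3 (quasi-likelihood, all 6 libraries, TMM factors from sites, filterByExpr with a minimum count of 10, Benjamini-Hochberg adjusted p under 0.05 over all 20331 windows or 177759 sites). Fold changes are log2 with the standard error (SE). With 2 libraries a group the smallest exact permutation p is 0.333, so that test was not used. Scripts were tested on simulated data. Genes came from RefSeq (GRCh38.p14), and 171 genes off the chromosomes were left out. Named windows were the 5 largest rises and falls at 6 h and at 72 h against 0 h and the 3 largest from 6 to 72 h, all called and without overlap between libraries, the 5 with most sites, the 5 with most sites called both ways at 72 h, and up to 4 windows per gene list. The windows and lists were chosen with earlier results of these data known. Alternatives were DESeq2 1.42.0, RLE, total counts, TMM factors from the 35800 sites with a peak in all libraries, loess offsets, no filter, stricter calls, other windows, no gene-end sites, the replicate block and each library left out. Replicates differed by more than sampling noise (chi-square per degree of freedom 3.50 to 4.95). Some marker genes are not reported here.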

Additional observations from a re-analysis of the deposited data

How the results depend on the processing

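Of 854 alternative values for 61 results on named windows, 34 lost and 16 gained the call, and 36 changed sign, in 18 results. Here and below a change of sign was counted only where the main or the alternative value was called. The other 768 kept their side of the threshold, and uncalled values among them may differ in sign. The cause was not tested. With shared-site factors, 59.3% of dense windows were higher and 4.38% lower at 6 h, 74.1% and 7.06% at 72 h, and 56.9% and 5.47% from 6 to 72 h; sites gave 8.71% lower at 6 h, 58.0% and 11.2% at 72 h, and 39.2% and 6.44% from 6 to 72 h. With total counts, 14.5% of windows were lower at 6 h, 51.7% higher and 28.7% lower at 72 h, and 33.7% and 29.6% from 6 to 72 h; sites gave 21% lower at 72 h and 28.0% and 14.6% from 6 to 72 h, and the median level was 115 CPM at 0 h and 143 at 72 h. With loess offsets, windows gave 46.6% and 27.8% at 72 h and 30.5% and 19% from 6 to 72 h, and 17.9% of sites were lower from 6 to 72 h. Without gene-end sites 14.7% of windows were lower at 6 h. With calls limited to adjusted p under 0.01 and more than 1 log2 unit of change, windows gave 9.75% and 0% at 6 h, then 13.2% and 14.4% at 72 h, and 4.78% and 2.19% from 6 to 72 h, and sites 6.82% lower at 6 h and 11.7% and 11% from 6 to 72 h. The 8 windows of 30 or more sites gave 12.5% higher in both comparisons with 0 h, 0% from 6 to 72 h, with shared variance of 0.0505, 0.0969 and 0.1, and windows shifted by 50000 bases gave 0.354 from 6 to 72 h. At 72 h, log2 values that changed sign with shared-site factors were HES2 0.48, MIR4435-2HG 0.55, GSE1 0.35, chr1:234800001-234900000 0.78, UBXN11 0.30, GATA2 0.0405, DAGLA 0.81, MFN2 0.54, CAPN2 0.74, LYL1 0.15, RPLP0 0.38, PRKCB 0.65 and PRKCD 0.70. With total counts they were HES2 0.0121, MIR4435-2HG 0.0782, chr1:234800001-234900000 0.31, DAGLA 0.34, MFN2 0.0674, CAPN2 0.27, PRKCB 0.18 and PRKCD 0.23. With loess offsets they were GSE1 0.072, chr1:234800001-234900000 0.53, MFN2 0.17, CAPN2 0.70, LYL1 0.0077, RPLP0 0.47 and GP1BB 0.17, and at 6 h the ribosomal RNA windows 0.000251 and 0.0123. Without gene-end sites they were DAGLA 0.32, TLN1 0.32, RPLP0 0.15, FOSL1 0.18, PRKCB 0.0626 and PRKCD 0.23. Leaving out each library gave 26% to 37.9% of windows higher and 15.2% to 29.5% lower at 6 h, 26.7% to 29.9% and 46.4% to 51.5% at 72 h, and 12.8% to 17.9% and 45.7% to 60.9% from 6 to 72 h. For sites it gave 20% to 27.3% and 13.2% to 16.8%, 31.2% to 38.0% and 25.4% to 32.9%, and 11.9% to 21% and 14.9% to 29.4%. The lowest share of windows lower at 6 h came without 6 h replicate 1, and sites from 6 to 72 h gave 16.7%, 15.9% and 14.9% lower without 6 h replicate 2, 72 h replicate 1 and 72 h replicate 2. With the replicate block, no named window lost its call or changed sign, and 2 gained a call, CAPN2 (-0.23) and chr1:234800001-234900000 (-0.19). At 6 h the block gave 40.6% of dense windows higher and 30.5% lower, against 36.8% and 24.8% without it. Same-numbered libraries correlated weakly (site deviations 0.08 to 0.13, window deviations 0.15 to 0.24), so pairing was not established. Depth limits the sites with few counts, such as those at 0 in both controls.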

Other observations

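The authors' deposited table gives each site a class by name, and in dense windows these names did not follow the sign of the fold changes in the same table. In the authors' deposited table, the 1054 dense-window sites of the class downEarly had median log2 values of 0.97 (6 h) and 2.15 (72 h), with 70.8% above 0 at the later time. The 242 sites of downLate had medians of 1.33 and 2.27 in the authors' deposited table. The 683 sites of upEarly had 0.94 and 2.15 there, and the 2455 sites of upLate had 1.13 and 2.19. The 17778 static sites had -0.09 and -0.18 in the authors' deposited table. The edgeR fits gave medians at 72 h of 2.48 for downEarly, 2.60 for downLate, 2.48 for upEarly and 2.52 for upLate. What the class names stand for is not given in the sources used here, and they were used in no comparison.

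The share of dense-window sites with a peak in the list of the same library was 36.0% and 40.4% in untreated cells, 37.5% and 55.2% after 6 h, then 69.8% and 71.6% after 72 h. Sites outside dense windows gave 31.1% and 35.1%, 32.1% and 46.8%, and 70.8% and 72.8%. Library totals differed between the times, so these shares are given as values only.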
